A study of Mus musculus with 6 samples.

Results

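Cadherins and protocadherins are cell surface proteins built from repeated calcium-binding extracellular cadherin domains. Classical cadherins bind the same cadherin on a neighbouring cell and are tied to the actin cytoskeleton by catenins, and in the kidney the podocyte slit diaphragm, the filter between neighbouring foot processes, is regarded as a modified adherens junction that contains P-cadherin and the giant cadherin FAT1. Clustered protocadherins are encoded by the alpha, beta and gamma gene arrays, in which each gene has its own promoter. In the alpha and gamma arrays a gene's own large exon is spliced to constant exons that all genes of the array share, and in the nervous system a cell uses a subset of the array that sets its surface identity.

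The family was taken as all protein-coding genes with a symbol of the Cdh, Pcdh, Fat, Dchs (Dachsous) or Celsr series, which gave 101 genes of 57132 identifiers, under 100 distinct symbols because 2 genes carry the symbol Pcdha11. RNA-seq counts were compared between 3 samples of WT podocytes (line IMWT, Col4a3+/+) and 3 of AS podocytes (line IMAS, Col4a3-/-). Col4a3 encodes a chain of the type IV collagen of the glomerular basement membrane, and its loss causes Alport syndrome (AS). Both lines were labelled as kidney podocytes from 8-week-old males and were untreated. Both came from crosses with H-2Kb-tsA58 mice, so both carry a large T antigen that is active at low temperature and under interferon gamma. According to the labels they were grown at 33 °C with 20 U/mL interferon gamma and differentiated at 37 °C for 14 days, whereas the study's methods give other values and no interferon during differentiation. Each genotype is represented by a single line, so genotype and line cannot be told apart. The samples of a line are named sets 1 to 3 with no word on separate cultures, and the p-values therefore measure the spread between these samples, which may be technical.

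The libraries held 45417221 to 54290968 counts. Values are given as CPM, a gene's count relative to its TMM-scaled library size and expressed per 1e6 reads, and a gene was called when the adjusted p of edgeR's quasi-likelihood test, corrected by Benjamini-Hochberg over 16263 genes, was under 0.05. Col4a3 itself was at 938, 1052 and 1272 CPM in WT podocytes and at 62.4, 61.2 and 82.9 CPM in AS podocytes (log2 fold change -3.98 ± 0.15, SE, adjusted p = 1.31e-07). The podocyte label was borne out by its markers in part. Synpo was at 758 to 847 CPM in WT and at 497 to 558 CPM in AS podocytes, Nphs1 stayed below 0.5 CPM, and Wt1 was at 15.3 to 25.8 CPM in WT and at 1.44 to 3.14 CPM in AS podocytes. Of 8 podocyte markers tested, 5 were lower and 2 higher in AS podocytes. For this and the marker counts that follow, the shares over all 16263 genes were 19.6% lower and 20.4% higher. Endothelial markers summed to 10.4 to 14.6 CPM in WT against 2.11 to 3.39 CPM in AS podocytes, with 3 of 3 tested lower in AS podocytes and 2 of 8 without a count, and in WT podocytes Erg made up most of that sum. Parietal epithelial markers summed to 639 to 768 CPM and 501 to 536 CPM, with 3 of 5 tested lower. Mesangial and smooth muscle markers (2 of 7 lower), tubular markers (0 of 3 called), neuronal markers (1 of 4 higher, 1 lower) and leukocyte markers (0 of 2 called) had overlapping summed levels. In both lines Acta2 made up most of the mesangial and smooth muscle sum, and Lrp2 most of the tubular sum. The part of other cell types in the values below was not tested. In such bulk samples, fewer cells of a type and less RNA per cell cannot be told apart.

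Of the 101 genes, 67 had enough counts to be tested, 28 had counts below the filter and 6 had none. In AS podocytes 25 of the 67 were higher and 12 lower when compared to WT podocytes, that is 55.2% called, beside 40.1% of all 16263 genes (20.4% higher and 19.6% lower). Past a fold change of 2 were 27 family genes, 17 higher and 10 lower, which is 40.3% of those tested beside 11.2% of all genes. The 3 samples of a line did not overlap with those of the other in 41 of the 67, beside 52.3% of all genes. The median size of the log2 fold change, regardless of sign, was 0.77 over the tested members and 0.28 over all genes, and the median with sign was 0.36 and 0.0061. These are counts of the genes that passed the filter. Of them 7 passed through the AS samples alone and 3 through the WT samples alone, and such a gene entered the test on the level of one line. Those called among them were Pcdhga11, Pcdhga9, Pcdhb11, Pcdhb12, Cdh17 and Cdh23, which passed through the AS samples, and Pcdhgb6, which passed through the WT samples. Their size and p are given below as descriptions of genes that were low in the other line.

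**Figure D1:**
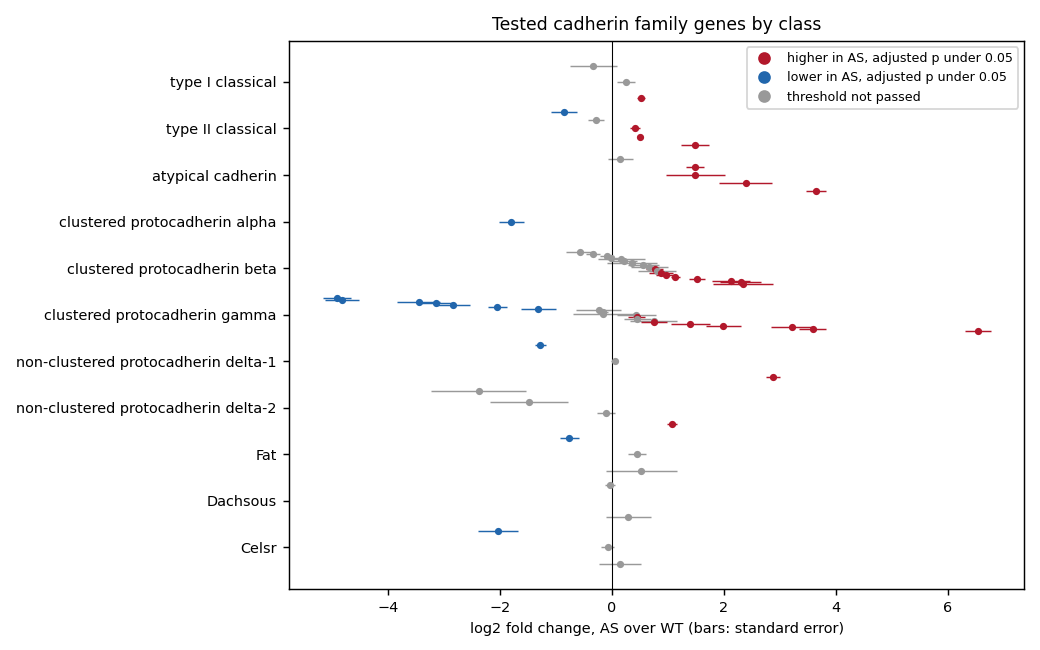
Log2 fold change of AS over WT podocytes (horizontal axis) for the 67 tested genes, grouped by class, with bars for the standard error. Red points are the 25 genes called higher in AS podocytes, blue points the 12 called lower, and grey points the other 30. Gamma protocadherins spread from -4.91 to 6.53, beta protocadherins were called to the right of 0 alone, and Fat, Dachsous and Celsr genes were mostly grey.

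The gamma protocadherins showed the widest differences. Of 21 genes, 20 were tested, and 7 were higher, 7 lower and 6 not called. That is 70% called, beside 40.1% of all genes (20.4% higher and 19.6% lower). Pcdhga11 (ENSMUSG00000102742.2) was at 0.355, 0.128 and 0.152 CPM in WT podocytes and at 20.7, 19.4 and 20.4 CPM in AS podocytes. It was barely read in WT samples and even across AS samples, with a log2 fold change of 6.53 ± 0.23 (SE, adjusted p = 8.08e-08). It passed the filter through the AS samples alone. Pcdhga3 (ENSMUSG00000104346.2) was at 22.2, 14.9 and 16.1 CPM in WT podocytes and at 0.755, 0.370 and 0.654 CPM in AS podocytes. That is the opposite pattern, with every WT sample far above every AS sample and a log2 fold change of -4.91 ± 0.25 (adjusted p = 7.64e-07). Pcdhgb5 was at 18.7, 12.8 and 14.7 CPM and fell to 0.866, 0.272 and 0.527 CPM (log2 fold change -4.81 ± 0.30, adjusted p = 3.13e-06). Pcdhga2 was at 0.533, 0.278 and 0.499 CPM in WT and at 5.73, 5.27 and 4.85 CPM in AS podocytes (log2 fold change 3.59 ± 0.24, adjusted p = 5.10e-06).

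Between these extremes, Pcdhga7 went from 17.7, 12.6 and 13.1 CPM in WT podocytes to 4.02, 3.50 and 3.02 CPM in AS podocytes (log2 fold change -2.05 ± 0.17, adjusted p = 1.72e-05). Pcdhgb7 was at 4.18, 4.59 and 4.70 CPM and then at 0.466, 0.292 and 0.763 CPM (-3.13 ± 0.29, adjusted p = 3.99e-05). Pcdhgb4 was at 5.76, 4.74 and 4.03 CPM and then at 1.07, 0.428 and 0.563 CPM (-2.84 ± 0.31, adjusted p = 0.000103). In each of these genes the lowest WT sample lay above the highest AS sample. Pcdhgb6 was at 2.92, 1.71 and 1.50 CPM in WT and at 0.244, 0.136 and 0.182 CPM in AS podocytes (-3.44 ± 0.39, adjusted p = 0.000121). Of the remaining called genes, Pcdhga9 (log2 fold change 3.21) and Pcdhga6 (1.99) were higher, Pcdhgc5 (-1.31) was lower, and Pcdhga12, with a mean under 1 CPM in both lines, was higher. Pcdhga4 and Pcdhgb2 were also called higher, by less than 2-fold. Their adjusted p of 0.0483 and 0.0266 did not hold well. Pcdhga4 missed the threshold in 5 of the 6 fits that left out 1 sample (adjusted p 0.0685 to 0.179; it was called without WT replicate 1), with RLE scaling (0.0525) and with a minimum mean of 1 CPM (0.0508). Pcdhgb2 missed it without WT replicate 3 and without each AS sample in turn (adjusted p 0.0613 to 0.0734).

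Pcdhgc3, the gamma gene with the highest CPM per kb of exon in both lines, was at 91.5, 102 and 83.0 CPM in WT podocytes and at 91.2, 77.0 and 79.2 CPM in AS podocytes. These ranges overlapped and the gene was not called (log2 fold change -0.16 ± 0.09, adjusted p = 0.183). It held 49.5% to 58.8% of all gamma counts in WT samples and 57.6% to 58.8% in AS samples. The summed gamma level was also of similar size, with 185, 173 and 154 CPM in WT and 157, 131 and 138 CPM in AS podocytes, and overlapped between lines. Without Pcdhgc3 the sum was 93.5, 71.2 and 70.8 CPM in WT and 65.4, 53.9 and 58.4 CPM in AS podocytes. All AS samples then lay below all WT samples, and this sum was not tested. The makeup differed too. The 7 genes called higher made up 6.57% to 8.19% of gamma counts in WT and 31.9% to 33.4% in AS samples, and the 7 called lower made up 31.0% to 39.2% and then 4.28% to 5.23%. These shares restate the calls and carry no test. By subfamily, 6 of the 11 tested A genes were higher and 2 lower, whereas 1 of the 6 B genes was higher and 4 lower. Of all genes, 20.4% were higher and 19.6% lower. The B genes summed to 34.2, 26.3 and 26.6 CPM in WT and to 6.66, 4.79 and 5.41 CPM in AS podocytes. Along chromosome 18, leaving out genes that were not called, Pcdhga2 was higher, Pcdhga3 lower, Pcdhga4, Pcdhgb2 and Pcdhga6 higher, Pcdhga7, Pcdhgb4 and Pcdhgb5 lower, Pcdhga9 higher, Pcdhgb6 and Pcdhgb7 lower, Pcdhga11 and Pcdhga12 higher, and Pcdhgc5 lower. This order was not tested.

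**Figure D2:**
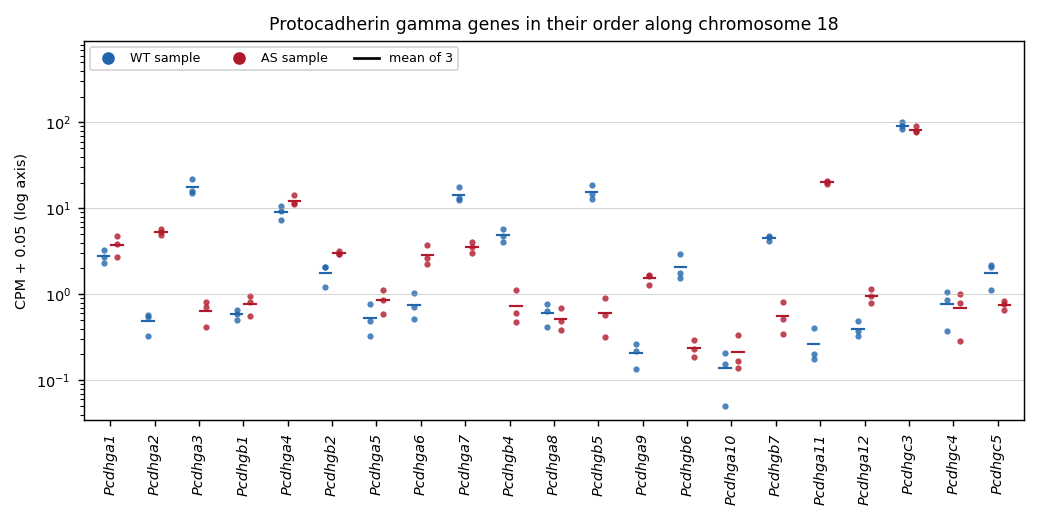
CPM plus 0.05 (log axis) of the 21 gamma protocadherin genes, placed in their order along chromosome 18, with a point for each WT (blue) or AS (red) sample and a line for the mean of 3. Pcdhga11 stands at 19.4 to 20.7 CPM in AS against at most 0.355 CPM in WT samples, Pcdhga3 and Pcdhgb5 stand the other way round, and Pcdhgc3 overlaps. Heights are not adjusted for length and compare samples within a gene.

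Gene by gene, the counts of these arrays are less certain than those of other genes. In the annotation, 31.5% to 66.8% of the exon bases of a gamma gene and 38.9% to 91.4% of those of an alpha gene are shared with another gene on the same strand, and 0 to 9.67% in the beta array, which has no constant exons. How reads in shared exons were counted is not given in any source at hand. Antisense overlap also bears on some gamma genes. BC037039 on the opposite strand covers 28.35% of the exon bases of Pcdhgc3, and its counts were not examined. Gm26672 on the opposite strand covers 29.0% of the exon bases of Pcdhga11 and 16.4% of those of Pcdhgb7. Gm26672 had 0, 0 and 3 counts in WT and 28, 36 and 62 counts in AS samples. Without knowing whether strand was used, reads of such partners cannot be told apart.

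The beta protocadherins were called in one direction. Of 22 genes 18 were tested, and 8 were higher, 0 lower and 10 not called. That is 44.4% called, beside 40.1% of all genes (20.4% higher and 19.6% lower). Of the 8, Pcdhb11 and Pcdhb12 passed the filter through the AS samples alone. The log2 fold changes of the uncalled genes lay on both sides of 0. Pcdhb17, the beta gene with the highest CPM per kb, was at 28.1, 23.2 and 25.3 CPM in WT podocytes and at 58.7, 52.4 and 56.6 CPM in AS podocytes. All AS samples lay above all WT samples, at 2.19-fold (log2 fold change 1.13 ± 0.08, adjusted p = 8.55e-06). Pcdhb14 was at 6.08, 5.60 and 4.57 CPM and at 15.6, 13.5 and 17.7 CPM (1.52 ± 0.14, adjusted p = 3.94e-05). Pcdhb3 was at 0.375, 0.726 and 0.282 CPM and at 2.20, 1.91 and 1.94 CPM (2.12 ± 0.34, adjusted p = 0.000969). Pcdhb12 was at 0.256, 0.491 and 0.195 CPM and at 1.78, 1.60 and 1.31 CPM (2.30 ± 0.36, adjusted p = 0.000939).

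Pcdhb11, Pcdhb12 and Pcdhb3 had low levels in WT podocytes and differed most in ratio. On the opposite strand, Gm37446 covers 63.5% of the exon bases of Pcdhb12 but had no count in WT samples and 3, 4 and 0 counts in AS samples. Pcdhb11 was at 0.178, 0.662 and 0.0867 CPM in WT and at 1.44, 1.67 and 1.58 CPM in AS podocytes (2.34 ± 0.54, adjusted p = 0.00716). Smaller differences were found for Pcdhb20 at 5.13, 3.35 and 3.32 CPM against 8.01, 7.32 and 7.80 CPM (0.97 ± 0.18, adjusted p = 0.00238). Pcdhb19 was at 12.5, 11.1 and 8.00 CPM against 19.7, 16.1 and 18.1 CPM (0.77 ± 0.16, adjusted p = 0.00371), and Pcdhb21 was higher by 0.88 ± 0.22 (adjusted p = 0.0107). All of these AS samples lay above the WT samples of the same gene.

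Neighbouring beta genes were not called. Pcdhb16 was at 16.6, 14.5 and 14.3 CPM in WT and at 15.3, 12.7 and 17.0 CPM in AS podocytes (-0.02 ± 0.12, adjusted p = 0.931). Pcdhb22 was at 16.3, 15.3 and 16.1 CPM and at 15.3, 10.7 and 11.8 CPM (-0.34 ± 0.13, adjusted p = 0.0656). The whole array summed to 106, 94.1 and 90.4 CPM in WT and to 160, 137 and 156 CPM in AS podocytes. Of that sum the 8 called genes held 47.7% to 51.5% in WT and 68.9% to 71.2% in AS samples. As shares of the array the log2 ratios of the 8 were smaller, from 0.13 for Pcdhb19 and 0.49 for Pcdhb17 to 1.70 for Pcdhb11, all still above 0.

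**Figure D3:**
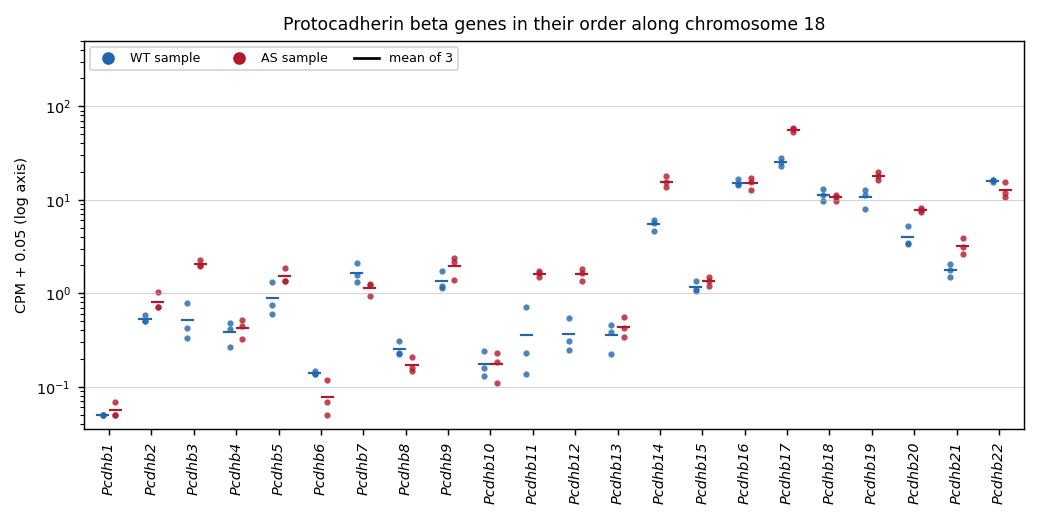
CPM plus 0.05 (log axis) of the 22 beta protocadherin genes in their order along chromosome 18, with a point for each WT (blue) or AS (red) sample and a line for the mean of 3. Pcdhb17 stands at 23.2 to 28.1 CPM in WT and at 52.4 to 58.7 CPM in AS samples, while Pcdhb16 overlaps. Heights are not adjusted for length and compare samples within a gene.

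The alpha protocadherins were close to silent in both lines. All 14 genes together had 143 to 162 counts in WT samples (3.08, 3.46 and 3.10 CPM) and 49 to 74 counts in AS samples (1.09, 1.25 and 1.34 CPM). Pcdha12 alone passed the filter, at 2.49, 2.99 and 2.69 CPM in WT and at 0.710, 0.681 and 0.945 CPM in AS podocytes (log2 fold change -1.80 ± 0.22, adjusted p = 0.000228). Every WT sample was above every AS sample. As a share of all alpha counts the log2 ratio was -0.42. Below the filter, Pcdhac2 and the Pcdha11 gene with the identifier ENSMUSG00000007440.11 were read in WT podocytes and had no count in AS podocytes, at least 8.62-fold and 6.67-fold lower when 3 counts over the 3 AS samples are taken as the limit of detection. Pcdha3 had no count in WT podocytes and was at least 7.22-fold higher in AS podocytes by the same limit. These values rest on few reads and carry no test.

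Among type I classical cadherins, which bind strongly to their own kind at adherens junctions, N-cadherin (Cdh2, ENSMUSG00000024304.15) was at 565, 562 and 494 CPM in WT podocytes and at 800, 799 and 721 CPM in AS podocytes. All AS samples lay above all WT samples, at 1.43-fold (log2 fold change 0.52 ± 0.08, adjusted p = 0.000609). P-cadherin (Cdh3), the slit diaphragm cadherin, was at 152, 103 and 93.0 CPM and at 148, 121 and 147 CPM. WT replicate 1 lay above all AS samples, the other WT samples below them, and the gene was not called (0.25 ± 0.16, adjusted p = 0.249). Without that sample it was called at 0.50 (adjusted p = 0.00106). E-cadherin (Cdh1), typical of epithelia, was barely read, at 0.320 to 0.433 CPM in WT against 0.178 to 0.370 CPM in AS podocytes (adjusted p = 0.568). Cdh4 (R-cadherin) had 86, 6 and 21 counts in WT and 0, 2 and 4 counts in AS samples, most of them in WT replicate 1, and did not pass the filter, nor did Cdh15, the muscle cadherin.

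Type II classical cadherins share the adherens junction role, and 5 of 13 were tested. Of these 3 were higher and 1 lower, beside 20.4% and 19.6% of all genes. Cdh11, a cadherin of mesenchymal cells, was at 940, 917 and 914 CPM in WT podocytes and at 1360, 1270 and 1297 CPM in AS podocytes. The groups were tight and separate (log2 fold change 0.50 ± 0.06, adjusted p = 0.000199). Cdh11 lies on chromosome 8, where the median log2 fold change of all genes was 0.31, and with that median removed its value was 0.19 (adjusted p = 0.0358). Cdh6, the cadherin of the developing proximal tubule, was at 698, 484 and 488 CPM and at 497, 400 and 472 CPM and was not called (-0.29 ± 0.14, adjusted p = 0.139). With the chromosome 15 median of 0.19 removed it was called lower (-0.48, adjusted p = 0.0284).

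Less abundant type II genes differed too. Cdh24 was at 15.4, 18.4 and 16.5 CPM in WT and at 22.0, 21.9 and 23.3 CPM in AS podocytes (0.42 ± 0.08, adjusted p = 0.00380). Cdh18 was at 0.809, 0.983 and 1.24 CPM and at 2.69, 3.56 and 2.22 CPM (1.48 ± 0.26, adjusted p = 0.00155). Both were separate between lines. Cdh10 was lower, from 3.06, 5.06 and 5.61 CPM to 2.38, 2.51 and 2.71 CPM (-0.85 ± 0.23, adjusted p = 0.0148), but not without WT replicate 3 (adjusted p = 0.0578). VE-cadherin (Cdh5), the cadherin of endothelial junctions, was near 0, with means of 0.0431 CPM in WT against 0.0130 CPM in AS podocytes.

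Most atypical cadherins lack the catenin-binding tail of classical cadherins. Of the 5, 4 were called, all higher in AS podocytes (80%, beside 40.1% of all genes called in either direction). Among these, Cdh17 and Cdh23 passed the filter through the AS samples alone, so their values describe genes that were low in WT podocytes. T-cadherin (Cdh13, ENSMUSG00000031841.20), which is held in the membrane by a lipid anchor and binds adiponectin, was at 1.60, 2.39 and 1.50 CPM in WT podocytes and at 24.9, 23.5 and 20.1 CPM in AS podocytes. It was 12.5-fold higher with no overlap (log2 fold change 3.64 ± 0.18, adjusted p = 5.70e-07). KSP-cadherin (Cdh16), the kidney-specific cadherin of tubular epithelium, was at 75.0, 86.9 and 52.0 CPM and at 220, 181 and 199 CPM. All AS samples exceeded the highest WT sample (1.49 ± 0.16, adjusted p = 9.34e-05). The tubular markers summed to 251 to 313 CPM in WT and to 203 to 312 CPM in AS podocytes. Nearly all of that sum was Lrp2, at 246 to 307 CPM in WT and 196 to 307 CPM in AS podocytes. The part of tubular cells in the Cdh16 level was not tested. Cdh13 and Cdh16 lie on chromosome 8 and kept their call with its median removed, at 3.33 and 1.18. LI-cadherin (Cdh17), a cadherin of gut epithelium, was at 0.454, 0.555 and 0.0867 CPM and at 2.09, 2.30 and 1.42 CPM (2.39 ± 0.48, adjusted p = 0.00341).

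Cdh23, part of the tip links of hair cells, was at 0.138, 0.406 and 0.845 CPM and at 1.07, 1.01 and 1.78 CPM. Its call (1.49 ± 0.52, adjusted p = 0.0475) was weak. It was lost with the chromosome 10 median removed (adjusted p = 0.116) and in 5 of the 6 fits that left out 1 sample (adjusted p 0.0648 to 0.177; it was kept without WT replicate 3). Cdh26 was at 5.48, 10.9 and 9.65 CPM and at 9.46, 10.6 and 8.85 CPM, overlapping, and was not called (0.15 ± 0.22, adjusted p = 0.627).

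**Figure D4:**
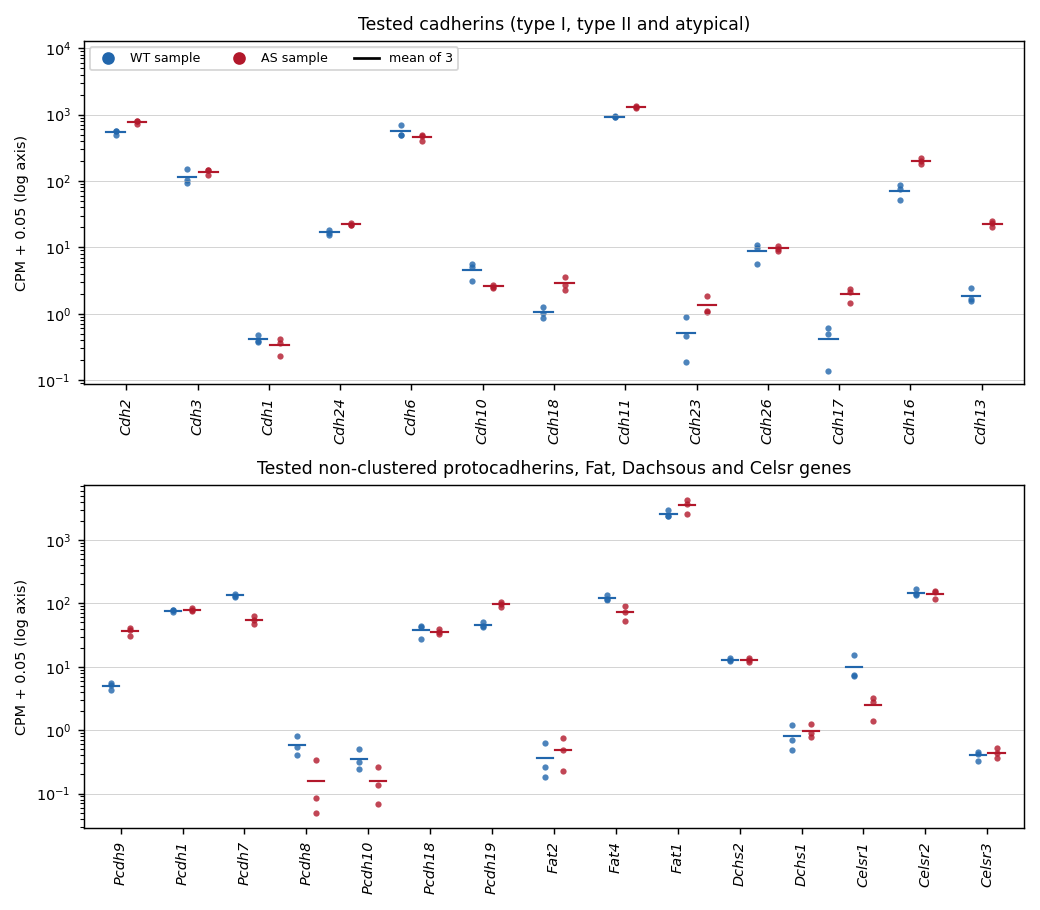
CPM plus 0.05 (log axis) of the tested cadherins (upper panel) and of the tested non-clustered protocadherins, Fat, Dachsous and Celsr genes (lower panel), with a point for each WT (blue) or AS (red) sample and a line for the mean of 3. Cdh13 and Pcdh9 move up by 12.5-fold and 7.35-fold, Pcdh7 moves down, and Pcdh1 and Dchs2 overlap. Heights are not adjusted for length and compare samples within a gene.

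Non-clustered protocadherins stand alone in the genome and have cytoplasmic tails of their own. Of 12 such genes 7 were tested. Pcdh8 (log2 fold change -2.37) and Pcdh10 (-1.48) differed by more than 2-fold but were not called. Those called with a fold change over 2 were Pcdh9, Pcdh7 and Pcdh19, beside 11.2% of all genes past both limits. Their promoters are shown because they are the called non-clustered protocadherins, and because the direction differed between them. The sequences are from RefSeq (GRCm38.p6), upstream of the start site and read 5′ to 3′ on the strand of the gene. Of the 100 symbols 29 had a promoter in the RefSeq table. Capitals mark CCAAT or its reverse complement ATTGG, the motif bound by the transcription factor NF-Y.
Pcdh9, chr14:93890680-93890929, minus strand: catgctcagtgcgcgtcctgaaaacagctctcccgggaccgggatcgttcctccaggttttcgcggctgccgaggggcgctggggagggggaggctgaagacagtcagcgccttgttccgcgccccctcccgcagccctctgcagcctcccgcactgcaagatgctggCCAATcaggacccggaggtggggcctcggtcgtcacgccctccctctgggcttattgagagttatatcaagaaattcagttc
Pcdh19, chrX:133688994-133689243, minus strand: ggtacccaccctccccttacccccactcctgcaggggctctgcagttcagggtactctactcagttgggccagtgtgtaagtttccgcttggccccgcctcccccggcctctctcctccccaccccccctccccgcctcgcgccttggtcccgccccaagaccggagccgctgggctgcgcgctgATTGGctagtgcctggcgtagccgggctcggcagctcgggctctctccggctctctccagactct
Pcdh7, chr5:57717831-57717966, plus strand: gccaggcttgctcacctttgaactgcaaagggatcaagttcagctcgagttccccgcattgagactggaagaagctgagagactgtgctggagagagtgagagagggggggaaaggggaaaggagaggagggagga

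The Pcdh9 window holds CCAAT, beginning at position -82 from the start site, and the Pcdh19 window holds ATTGG, beginning at -65. The Pcdh7 window of 136 bases, shorter because another annotated start lies upstream of the RefSeq start, holds neither. Either form occurs in 34.5% of the 250-base windows of all 27025 promoters and in 14 of the 29 of this family. The E-box CACCTG or its reverse complement CAGGTG, bound by Snail and Zeb proteins, occurs in 17.1% of all promoters, in 4 of the 29 and in none of the 3 windows shown. The guanine and cytosine content was 63.6%, 69.2% and 55.9% in the order printed.

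Pcdh9 (ENSMUSG00000055421.9), a delta-1 protocadherin, was at 4.28, 5.41 and 5.07 CPM in WT podocytes and at 37.5, 40.1 and 30.8 CPM in AS podocytes. It was 7.35-fold higher with wide separation (log2 fold change 2.88 ± 0.13, adjusted p = 3.16e-07). Pcdh7, of the same class, was at 143, 129 and 127 CPM and at 63.2, 54.8 and 47.0 CPM. Here the AS samples were all below the lowest WT sample (-1.27 ± 0.10, adjusted p = 1.30e-05). The antisense gene 4932441J04Rik covers 21.1% of Pcdh7 exon bases and fell likewise, with 114, 98 and 97 counts in WT and 39, 63 and 44 counts in AS samples. Pcdh1, which is found at epithelial junctions, was at 78.8, 77.9 and 73.6 CPM and at 84.5, 75.5 and 78.0 CPM and was not called (0.05 ± 0.06, adjusted p = 0.576).

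Pcdh19, a delta-2 protocadherin whose mutation causes an X-linked epilepsy and which pairs with N-cadherin, was at 51.5, 44.3 and 41.7 CPM in WT podocytes and at 105, 88.7 and 96.6 CPM in AS podocytes. It was 2.11-fold higher without overlap (1.08 ± 0.09, adjusted p = 2.02e-05). Pcdh18 was at 27.3, 44.7 and 42.5 CPM and at 33.1, 38.9 and 34.8 CPM, with the AS samples inside the WT range (-0.10 ± 0.16, adjusted p = 0.662). Without WT replicate 1, the lowest sample, it was called lower (-0.29, adjusted p = 0.0112). Pcdh8 and Pcdh10 were below 1 CPM and not called, Pcdh8 narrowly (-2.37 ± 0.85, adjusted p = 0.0501). The other members of these classes, Pcdh11x, Pcdh12, Pcdh15, Pcdh17 and Pcdh20, did not pass the filter.

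Fat cadherins are giant cadherins, and Dachsous cadherins are the ligands of FAT4 in planar polarity and growth control. Fat1 was at 2992, 2342 and 2427 CPM in WT podocytes and at 4227, 2607 and 3741 CPM in AS podocytes. AS replicate 2 lay inside the WT range, and the gene was not called (log2 fold change 0.45 ± 0.17, adjusted p = 0.0566). It was called without AS replicate 2 (0.62, adjusted p = 0.00656) and without WT replicate 1 (0.56, adjusted p = 0.0127). With the chromosome 8 median removed the value was 0.14. Fat4 was at 134, 111 and 119 CPM and at 91.4, 51.8 and 72.1 CPM. All AS samples were below all WT samples (-0.76 ± 0.17, adjusted p = 0.00599).

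The Dachsous genes were not called. Dchs2 was at 12.4, 13.5 and 12.9 CPM in WT and at 13.6, 11.9 and 12.7 CPM in AS podocytes (-0.03 ± 0.09, adjusted p = 0.837), and Dchs1 was near 1 CPM or below in both lines. Celsr genes encode seven-pass cadherins of the core planar polarity pathway. Celsr1 was at 15.2, 7.29 and 7.22 CPM in WT podocytes and at 3.13, 1.36 and 2.76 CPM in AS podocytes, lower in all AS samples although WT replicate 1 stood well above the other WT samples (-2.04 ± 0.36, adjusted p = 0.00172). Celsr2 was at 167, 140 and 137 CPM and at 155, 116 and 152 CPM and was not called (-0.07 ± 0.12, adjusted p = 0.658). Celsr3 stayed below 0.5 CPM.

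To compare levels between genes, CPM was divided by exon length in kb. In WT podocytes the order of these levels was Fat1 (165 ± 22.5 CPM per kb, SD, n = 3), Cdh11 (104 ± 1.59), Cdh2 (67.0 ± 4.98), Cdh6 (61.7 ± 13.6), Cdh3 (26.5 ± 7.26), Cdh16 (18.8 ± 4.68) and Pcdhgc3 (16.7 ± 1.69). Cdh2 and Cdh6 overlapped, as did Cdh3 with Cdh16 and Cdh16 with Pcdhgc3. In AS podocytes the order was Fat1 (225 ± 53.1), Cdh11 (147 ± 5.16), Cdh2 (95.9 ± 5.60), Cdh16 (52.7 ± 5.12), Cdh6 (50.6 ± 5.60), Cdh3 (31.6 ± 3.46) and Pcdhgc3 (15.0 ± 1.39). Here Cdh16 overlapped with Cdh6 and stood above Cdh3, with which it overlapped in WT podocytes. The order of some neighbours depended on the length used. With the longest transcript as the length, Cdh11 came to 164 and Cdh2 to 112 CPM per kb in WT podocytes, and to 232 and 160 CPM per kb in AS podocytes. The ranges of Fat1 and Cdh11 then overlapped in both lines, Cdh2 stood apart from Cdh6 in WT podocytes, and Cdh16 (61.9 to 75.1 CPM per kb) stood above Cdh6 (48.9 to 60.8) in AS podocytes.

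Partners of the family were examined as lists. Among 18 tested catenins and linkers, which join cadherins to actin, 5 were higher and 6 lower, beside 20.4% and 19.6% of all genes. Their median log2 fold change was -0.14, beside 0.0061 over all genes. Delta-catenin (Ctnnd2) was at 46.4, 67.7 and 60.3 CPM in WT and at 9.37, 12.7 and 9.43 CPM in AS podocytes (-2.47 ± 0.16, adjusted p = 3.91e-06). Plakophilin 1 (Pkp1) was at 1.74, 1.41 and 1.69 CPM and at 7.17, 8.11 and 7.56 CPM (2.24 ± 0.15, adjusted p = 5.09e-06). Both were separate between lines, in opposite directions. The scaffold Magi1 (-0.75) and Nectin3 (-1.06), a nectin of adherens junctions, were lower.

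Of 12 tested transcription factors that act on cadherin genes, 7 were higher in AS podocytes and 2 lower (median 0.41), beside 20.4% and 19.6% of all genes. The list as a whole was not tested. Twist2 was at 2.41, 2.07 and 1.19 CPM in WT and at 11.7 to 15.5 CPM in AS podocytes (2.82 ± 0.23, adjusted p = 1.59e-05). Twist1, of the same family, was at 7.36, 8.01 and 8.17 CPM and at 22.6, 23.9 and 24.3 CPM (1.59 ± 0.08, adjusted p = 1.05e-06). Tcf3, the partner of such factors, was higher by 0.65, and Wt1, a podocyte transcription factor, was lower by a log2 fold change of -3.04. Direction was thus not uniform in this list.

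Of 18 regulators of the clustered protocadherin genes (CTCF, cohesin and methylation genes), 5 were higher and 1 lower (median 0.15), a smaller share called than the 40.1% of all genes. The called genes include the cohesin genes Smc3 (0.32) and Rad21 (0.32), the cohesin loader Nipbl (0.34) and Pds5b (0.49). That count was unstable: 13 were called without WT replicate 1 and 2 with chromosome medians removed. Of 19 planar polarity genes, 4 were higher and 6 lower (median -0.12), with Fzd3 (-1.37), Prickle1 (-1.42), Wwc1 (-0.41) and Dvl1 (-0.37) lower. Without AS replicate 2 or 3, 5 and 6 of these were called. Of 14 proteases that cut cadherins, 5 were higher and 5 lower (median -0.10), with Mmp14 (0.63) and Adam9 (0.45) higher and Adam15 (-0.50) and Furin (-0.32) lower. Without WT replicate 2, 6 proteases were called. Of 6 tested desmosomal and other superfamily genes, 2 were higher and 2 lower (median 0.25), with Clstn2 (-1.12), a synaptic calsyntenin, lower and the receptor Ret (1.46) and Cdhr1 (0.43) higher. The counts of the planar polarity, protease and desmosomal lists stand beside 20.4% of all genes higher and 19.6% lower.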

How the data were processed

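RNA-seq libraries of 3 WT and 3 AS podocyte samples were analysed. The authors deposited whole-number read counts per gene, without normalization, as 1 table whose columns match the labels (0 columns unmapped). Libraries were Nugen Universal Plus mRNA-Seq with 15 PCR cycles per the labels, and the submitters' processing notes name FastQC, Trim Galore, STAR, edgeR and the build mm39. Tool versions, counting tool, strand setting and annotation release: not given in the sources used here.

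Version numbers removed, 51880 of 57132 identifiers matched GENCODE M21 (GRCm38). That annotation gave symbols, gene types, chromosomes, gene order and exon lengths. Its coordinates gave the exon overlaps between genes and the cut of the Pcdh7 window. They are not printed because the builds differ. The printed promoter coordinates are those of the RefSeq table (GRCm38.p6). Testing was done with edgeR 4.0.16 under R 4.3.3 (filterByExpr with a minimum count of 10 and a total of 15, TMM scaling, quasi-likelihood test with a genotype term and no block, Benjamini-Hochberg over 16263 genes). SE is |log2 fold change| / sqrt(F), an approximation. The fit was tested on simulated data. Replicates differed by more than counting noise (chi-square per degree of freedom 9.73 to 49.5). The limits of detection cover counting error only, whereas SE and SD include the spread between the samples of a line. Alternatives were library-size and RLE scaling, DESeq2 1.42.0, limma-voom (3.58.1, the study's stated method), other filters, a replicate block, each sample left out, and chromosome medians removed. Shares of an array were added after seeing the data.

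The members and lists were chosen with earlier results of these data known. Named were called members with a mean of at least 1 CPM in a line, Cdh1, Cdh2, Cdh3, Cdh5, Cdh11, Cdh13, Fat1, Fat4, the highest member and the highest uncalled member of each class, and at most 4 called genes of each partner list. Pcdhga12, antisense partners and members below the filter were named after their values were seen. Arvcf was not used here.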

Additional observations from a re-analysis of the deposited data

How the results depend on the processing

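The count of family members called lay between 31 and 48 over 14 alternatives (37 as reported), all within 1.5 times. The count called lower was 19 with no filter on low counts. The lists moved as follows when 1 sample was left out: clustered protocadherin regulators 4 to 13, planar polarity 5 to 11 and proteases 6 to 9 genes called. The regulators came to 2 with chromosome medians removed. Of 653 values for named genes, 609 kept direction and side of the threshold, 18 lost the call, 11 gained it and 15 changed sign, all in genes that were not called. With chromosome medians removed these became Cdh3 -0.054, Pcdhb16 0.104, Pcdh18 0.017, Dchs2 0.088 and Celsr2 0.044. With library-size scaling Pcdhb16 became 0.012 and Fat1 was called, and with no filter Cdh3, Cdh6 and Fat1 were called. With 1 sample left out, the ranges were -0.096 to 0.348 for Cdh26, -0.116 to 0.086 for Pcdhb16, -0.0086 to 0.076 for Pcdh1, -0.291 to 0.028 for Pcdh18, -0.088 to 0.014 for Dchs2 and -0.155 to 0.046 for Celsr2. As shares of their own array, chosen after seeing the data, the called clustered genes that are named kept their signs. The causes were not tested.

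Sets sharing a number correlated at 0.147, 0.0939 and 0.0526, so the numbers were not taken as pairs, although 5 of 6 samples correlated best with their own number. With the replicate block 40 members were called, including Fat1 (0.43) and Cdh6 (-0.27). Most family genes under 1 CPM could not be tested at this depth.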
